A study of Mus musculus with 24 samples.

Results

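Neuronatin (Nnat), necdin (Ndn), Gnas, Peg3, Snrpn, Dlk1 and Impact are 7 imprinted genes with known roles in neurons, and their levels are described here across regions of the mouse brain. They were chosen by name, with their values in these regions already known, from the 19962 probe targets of a spatial profiling experiment. In that experiment barcoded probes were hybridised to brain sections, the barcodes of a chosen region were released by light, and the sequenced tags were counted. Males and females of 3 genotypes were used: wild type (WT) and the conditional knockouts with the labels MG-cKO and BMM-cKO. The series title names macrophage Lyn, a Src-family tyrosine kinase, and subarachnoid haemorrhage (SAH), and WT appears as WT-SAH in the design text. The labels do not spell out MG and BMM, name no Cre driver, and give neither strain nor age. There were 4 regions in each of 6 groups, which gave 24 regions, and they came from frozen sections stained for Tmem119 and Iba-1. Sham regions were not used here.

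An imprinted gene is expressed mainly from the copy inherited from one parent, because the copy from the other parent carries repressive marks such as DNA methylation that trace back to the germ line. Many imprinted genes of the mouse are active in the brain, and several of those described here are abundant in the hypothalamus. Nnat encodes a small membrane protein of the endoplasmic reticulum. Ndn, Magel2, Mkrn3 and Snrpn lie in the domain that corresponds to the human Prader-Willi syndrome region, and Peg3, Dlk1 and Gnas each belong to a domain of their own. The probe signal does not separate the parental copies, so nothing below measures imprinting itself.

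Promoter windows are shown because several of these genes carried the same 8 letters close to their start. The windows are from RefSeq on GRCm38.p6 and run from 250 bases before the start of a gene to 50 bases after it. Windows of 6 of the 7 genes were searched. The capitals mark CGCATGCG, a palindrome that was chosen after the windows had been read and that is the core of the element bound by nuclear respiratory factor 1.
Nnat, chr2:157559828-157560127, plus strand: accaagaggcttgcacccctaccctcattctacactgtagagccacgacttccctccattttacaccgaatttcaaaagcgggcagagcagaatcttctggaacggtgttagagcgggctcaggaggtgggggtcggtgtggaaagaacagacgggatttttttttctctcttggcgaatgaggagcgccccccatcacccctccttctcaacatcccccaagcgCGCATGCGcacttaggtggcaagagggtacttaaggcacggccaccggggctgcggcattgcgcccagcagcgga
Ndn, chr7:62348027-62348326, plus strand: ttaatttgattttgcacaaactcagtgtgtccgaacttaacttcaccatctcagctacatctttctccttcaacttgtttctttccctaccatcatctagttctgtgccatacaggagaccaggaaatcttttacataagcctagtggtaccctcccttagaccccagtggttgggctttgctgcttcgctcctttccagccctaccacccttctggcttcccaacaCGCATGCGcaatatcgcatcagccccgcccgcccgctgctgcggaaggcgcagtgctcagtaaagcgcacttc
Snrpn, chr7:60005150-60005449, minus strand: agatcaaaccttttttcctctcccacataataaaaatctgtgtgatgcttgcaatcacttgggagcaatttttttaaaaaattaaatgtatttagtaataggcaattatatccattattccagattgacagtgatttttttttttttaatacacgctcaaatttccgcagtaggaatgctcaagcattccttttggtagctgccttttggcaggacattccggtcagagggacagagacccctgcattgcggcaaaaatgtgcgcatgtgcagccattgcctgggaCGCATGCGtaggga

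In Nnat the match began -25 bases from the start and in Ndn -23 bases from it, whereas in this Snrpn window it began 36 bases after the start. Snrpn has 4 annotated starts, and each of the 4 windows held 1 match. The surroundings of the match are shown for the other 3 starts because they resemble each other.
Snrpn, chr7:60450222-60450251, minus strand: gcaaacatccaCGCATGCGtgattggaagg
Snrpn, chr7:60140285-60140314, minus strand: gcaaacatccaCGCATGCGtgatgggaggg
Snrpn, chr7:60048031-60048060, minus strand: gcaaacatgcaCGCATGCGtcgttgaaggt

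The palindrome reads the same on either strand, so 1 search covered them. It was in the windows of 3 of 6 genes, namely Nnat, Ndn and Snrpn, and it was absent from the windows of Gnas, Peg3 and Dlk1. Of all 27025 genes with a window, 559 held it (2.07%), and of the 32851 windows, 615 did (1.87%). Windows with at least 10 CpG dinucleotides held it in 4.07% of cases. Of 49 other imprinted genes with a window, 2 held it (4.08%): Snurf, whose window is identical to one of Snrpn's, and Commd1. A match in a window is a description of its letters and not a measured binding site.

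The regions held 1839154 to 10779960 tags each, and the 7 genes had 65 to 3905 tags per region, which gives counting errors between 12.4% and 1.6%. Levels below are multiples of the negative probe, a control with no target in the mouse, in the same region. A level near 1 is therefore background, and 3.14% of all targets had a mean level above 2. Depth and signal over background differed between groups. BMM-cKO males had 6672788 to 10779960 tags per region and WT males 1839154 to 4589359. Targets above 2 made up 4.25% to 7.99% in MG-cKO female regions and 2.69% to 3.49% in WT female regions. The part of this in the differences of single genes was not tested. The labels name the cell type macrophage, but Tmem119 lay at 0.649 to 0.947 times the negative probe and Aif1, which encodes Iba-1, at 1.25 to 2.65 times. Lyn itself lay at 0.878 to 1.22 times in all 24 regions, so its level does not check the genotype labels. Scan 2 held the males and scan 3 the females, so that sex and scan cannot be told apart. No label says which regions share an animal, and p-values over regions are too small wherever regions share an animal. In these regions, fewer neurons and less RNA per neuron cannot be told apart.

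Markers of brain areas differed between the groups. The summed level of 11 cortical and hippocampal genes, among them Nrgn and Slc17a7, was 40.7 to 67.3 in MG-cKO females and at most 22 in any other region. The summed level of 12 neuron genes, among them Snap25 and Syp, was 58.2 to 104 in MG-cKO females, 21.9 to 37.7 in WT females, 28.9 to 39.1 in WT males and 19.3 to 21.7 in BMM-cKO males. The summed level of 14 striatal genes, among them Penk and Ppp1r1b, was 24.6 to 45.6 in WT females and 16.4 to 26.2 elsewhere. The summed level of 14 hypothalamic genes, among them Hap1 and Baiap3, was 22.9 to 39.1 in MG-cKO males and 14 to 14.9 in MG-cKO females. In MG-cKO males this sum held Pmch, the gene of melanin-concentrating hormone, at 4.22 to 11.8 times the negative probe (0.833 to 0.971 in WT males), and Hcrt, the orexin gene, at 6.29 ± 7.96 (SD, n = 4 regions; 0.693 ± 0.0563 in WT males). Hap1 and Baiap3 had means of 3 and 1.57 in MG-cKO males and of 3.17 and 1.46 in WT males. Region 3 of the BMM-cKO females stood apart from all others. Its level of Ttr, the transthyretin gene that marks choroid plexus, was 361 times the negative probe, against at most 4.99 elsewhere, and its level of Enpp2 was 104 times, against at most 2.33 elsewhere. Differences between BMM-cKO and WT females are therefore given with and without it.

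Nnat varied more between groups than the other 6 genes, with a ratio of 6.16 between its highest and lowest group mean. In WT males its 4 regions lay at 4.2, 7.36, 9.06 and 4.66 times the negative probe. In MG-cKO males they lay at 3.9, 7.13, 7.15 and 7.02, and in BMM-cKO males at 2.82, 6.36, 5.24 and 3.29. All 12 male regions were above 2 times the negative probe, and the 3 male groups overlapped.

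In WT females Nnat lay at 2.59, 2.64, 4.04 and 2.31 times, below every WT male region. In MG-cKO females it lay at 1.29, 0.967, 0.902 and 0.942 times, which is the level of the negative probe in a group with 80 to 161 Nnat tags per region. In BMM-cKO females the regions split, with 1.63, 5.61, 1.06 and 7.36 times. Regions 2 and 4 thus reached male levels while regions 1 and 3 were close to background.

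Ndn encodes a growth suppressor of the MAGE family that is expressed in postmitotic neurons. It lay at 3.55, 5.47, 6.18 and 2.94 times the negative probe in WT males, at 2.11, 2.59, 2.82 and 2.63 in MG-cKO males and at 1.32, 2.24, 1.55 and 1.56 in BMM-cKO males. The regions of either male knockout were all below those of WT males. Ndn lay at 3.03, 1.22, 2.32 and 1.41 times in WT females and at 2.29, 1.84, 2.33 and 2.17 in MG-cKO females, so these groups overlapped. In BMM-cKO females it lay at 1.98, 5.14, 0.91 and 4.75, with the same high regions 2 and 4 as Nnat.

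Snrpn encodes SmN, the form of a core spliceosomal protein found in neurons. It lay at 1.55, 2.11, 2.68 and 1.47 times the negative probe in WT males, at 1.3, 1.79, 2.09 and 1.9 in MG-cKO males and at 0.848, 1.15, 0.967 and 1.04 in BMM-cKO males. The last of these groups was at background. In females it lay at 1.8, 0.83, 1.71 and 1.02 in WT, at 4.54, 2.72, 4.99 and 4.59 in MG-cKO and at 1.65, 2.23, 0.85 and 2.91 in BMM-cKO. MG-cKO females had the highest level in 3 of their 4 regions, and region 2 of that group lay just below region 4 of the BMM-cKO females.

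Gnas encodes the stimulatory G protein alpha subunit, which couples hormone and neurotransmitter receptors to cyclic AMP, and its locus makes several further transcripts that this target may or may not cover. It lay at 6.63, 10.7, 13.8 and 6.85 times the negative probe in WT males, at 6.06, 7.07, 8.29 and 9.74 in MG-cKO males and at 4.09, 5.75, 5.07 and 5.15 in BMM-cKO males. In females it lay at 6.48, 2.53, 4.37 and 2.6 in WT, at 11.8, 9, 14.1 and 13.2 in MG-cKO and at 8.79, 8.73, 13.8 and 19.2 in BMM-cKO. WT females had the lowest group mean and the female knockouts the highest, and the WT female regions lay below all WT male regions. BMM-cKO female region 3, where Nnat, Ndn and Snrpn were at background, had Gnas at 13.8.

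Among the genes above background, Peg3 and Impact had the smallest ratios between group means. Peg3, which encodes a zinc finger transcription factor, had group means from 3.12 ± 0.599 in WT females to 4.12 ± 1.44 in WT males (SD, n = 4 regions each), a ratio of 1.32, and lay between 2.61 and 6.02 times the negative probe in all 24 regions. Impact, which encodes a brain-enriched regulator of the translation kinase Gcn2, had group means from 1.51 ± 0.427 in WT females to 2.46 ± 0.732 in WT males, a ratio of 1.63. For each of them, every pair of neighbouring groups in the order of the means overlapped.

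Dlk1, which encodes a transmembrane protein related to Notch ligands, lay at 0.778 to 1.45 times the negative probe over all 24 regions. It was not distinguishable from background at this depth, and it alone of the 7 did not pass the filter on low values.

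**Figure D1:**
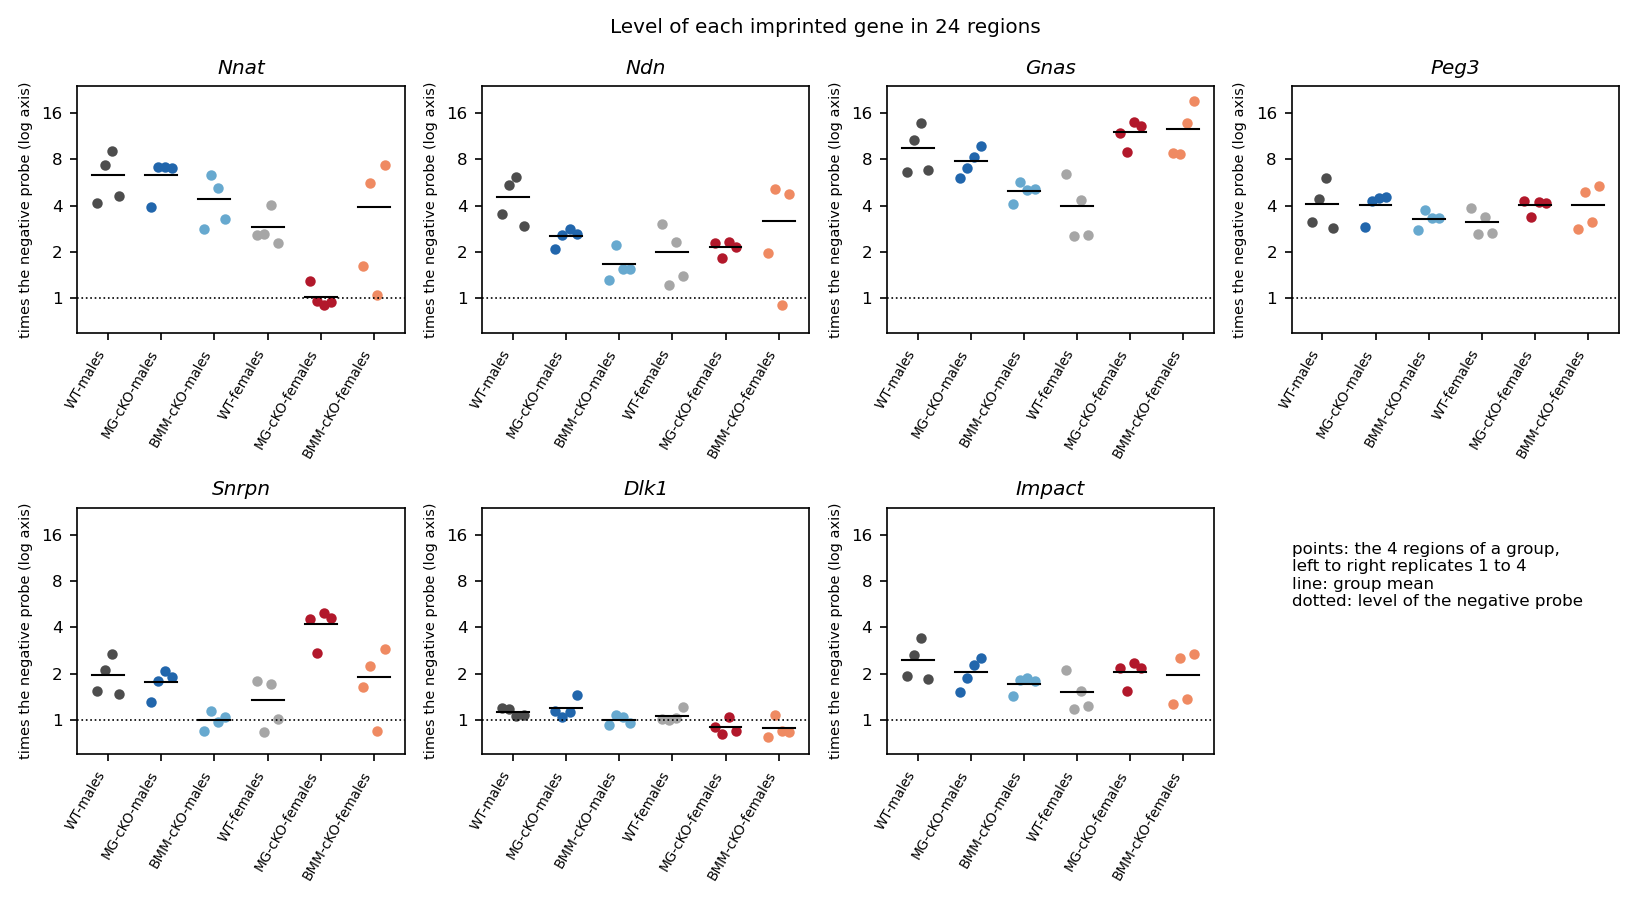
Level of the 7 imprinted genes in each region as a multiple of the negative probe (log axis), with 4 regions per group as points and the group mean as a line. Nnat is at the dotted background line in MG-cKO females, where Snrpn reaches 2.72 to 4.99, and Peg3 stays between 2.61 and 6.02 throughout.

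Each knockout was compared with the WT group of the same sex, on log2 values centred on the median tested target of each region. Because the genes were chosen with these values known, their differences are given with standard errors and without a test. The comparisons of a sex share the same WT regions. Whether regions overlap was judged on the multiples of the negative probe and not on the centred values, so the 2 measures can differ. In MG-cKO against WT females, the signal of Nnat was lower by 3.02-fold (log2 difference -1.59 ± 0.38 SE), while Gnas was higher by 2.94-fold (1.56 ± 0.30) and Snrpn by 2.95-fold (1.56 ± 0.26). Since MG-cKO females had Nnat at the level of the negative probe, its fold understates any difference in the transcript. The 4 regions of each group did not overlap for these 3 of 6 genes, which was also the case for 25% of the 9981 tested targets (22.5% all higher and 2.57% all lower). Ndn differed by 0.08 ± 0.33, Peg3 by 0.26 ± 0.20 and Impact by 0.34 ± 0.20, with overlapping regions. That of Ndn was -0.12 without WT region 2 and 0.30 without WT region 1. Under quantile normalization the Gnas difference was 0.71, that of Snrpn 1.14, and that of Peg3 turned to -0.22.

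Alongside, 11 of the 12 neuron genes rose in MG-cKO females with a median log2 change of 1.29, as did 6 of 7 tested cortical and hippocampal genes, while 10 of 11 tested striatal genes fell (limma, adjusted p under 0.05). Of 11 tested microglia and macrophage genes 10 fell (median -0.39), and of 8 astrocyte genes 3 rose (median 0.17). Snap25, a gene of synaptic vesicle fusion, rose by 2.37 (adjusted p = 3.91e-06) and Nrgn, a gene of cortical and hippocampal excitatory neurons, by 3.19 (adjusted p = 2.59e-11). Baiap3 of the hypothalamic list fell by 0.56 (adjusted p = 0.0315). Of 9 tested hypothalamic genes 2 fell. Over all tested targets 17.9% rose and 11.9% fell. The filter used the mean over all regions, so a gene can pass it through a single group. Lamp5 had a mean of 2.03 in MG-cKO females and at most 1.1 elsewhere, and Gng7 of 2.52 in WT females and at most 1.04 elsewhere. The cortical and striatal counts are thus partly set by the filter. The part of these markers in the differences of Nnat, Gnas and Snrpn was not tested.

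In BMM-cKO against WT males, Ndn was lower by 2.6-fold (-1.38 ± 0.33), Snrpn by 1.87-fold (-0.90 ± 0.26) and Gnas by 1.79-fold (-0.84 ± 0.30). Snrpn was at background in BMM-cKO males, so its fold understates any difference in the transcript. The regions of these 3 of 6 genes did not overlap with WT, and neither did those of 52.7% of the tested targets (27.5% all lower). The differences were -0.49 ± 0.38 for Nnat, -0.45 ± 0.20 for Impact and -0.24 ± 0.20 for Peg3, which was 0.12 under quantile normalization. Leaving out single regions gave -0.68 to -0.31 for Nnat and -0.38 to -0.06 for Peg3, the last without WT region 3. On the deposited scale, where the median tested target lay 1.49 higher in BMM-cKO males, the differences of Ndn, Snrpn and Gnas turned to 0.12, 0.60 and 0.66, all smaller than that median shift. Of the 12 neuron genes 7 fell in the same comparison, with a median of -0.58, and so did all 3 GABA neuron genes (median -0.71), 3 of 8 oligodendrocyte genes (median -0.54) and 3 of 8 astrocyte genes (median -0.26). Of 11 tested microglia and macrophage genes 5 fell and 2 rose. Over all tested targets 25.7% fell and 27.8% rose in this comparison. Pmch rose by 1.48 (limma adjusted p = 1.04e-05). Its means lay below the negative probe in WT males and all female groups, so it passed the filter through the male knockouts. The part of these markers in the differences of Ndn, Snrpn and Gnas was not tested.

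In MG-cKO against WT males, Ndn alone of the 6 genes had regions that did not overlap. It was lower by 1.7-fold (-0.76 ± 0.33; -0.94 to -0.61 with single regions left out), and regions did not overlap for 4.86% of the tested targets (3.07% all lower). The remaining differences were 0.04 ± 0.38 for Nnat, 0.04 ± 0.20 for Peg3, -0.10 ± 0.26 for Snrpn, -0.23 ± 0.30 for Gnas and -0.23 ± 0.20 for Impact. Without WT male region 3 they were 0.22 for Peg3, 0.04 for Snrpn, -0.04 for Gnas and -0.08 for Impact, and without MG-cKO male region 1 Nnat was at 0.23. The other ends of the ranges were -0.12 for Nnat, -0.10 for Peg3, -0.22 for Snrpn, -0.36 for Gnas and -0.34 for Impact. None of the 12 neuron genes passed the test there, and their median change was 0.05. For the 3 GABA neuron genes Gad1, Gad2 and Slc32a1, all regions of MG-cKO males were below WT males, as they were for Ndn, although 0 of the 3 passed limma's test and 2 had an unadjusted p under 0.05. Of 9 tested hypothalamic genes 2 rose, Pmch by 2.89 (limma adjusted p = 6e-09) and Hcrt from 0.693 to 6.29 times the negative probe (adjusted p = 0.0447, with overlapping regions). Of all tested targets 0.481% were called. Both genes had means below the negative probe in WT males and all female groups, so they passed the filter through the male knockouts where they were high. The count of 2 of 9 is therefore partly set by the filter. The part of these markers in the difference of Ndn was not tested.

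In BMM-cKO against WT females, Gnas was higher by 3.07-fold (1.62 ± 0.30) with regions that did not overlap, as was the case for 9.78% of the tested targets (8.68% all higher). Without region 3 the Gnas difference was 1.56, still with no overlap, as for 14.7% of the tested targets (11.6% all higher). Over all regions left out singly it was 1.40 to 1.88. The other genes differed by -0.03 ± 0.38 for Nnat, 0.39 ± 0.33 for Ndn, 0.38 ± 0.26 for Snrpn, 0.28 ± 0.20 for Peg3 and 0.25 ± 0.20 for Impact. Without region 3 these became 0.46 for Nnat, 0.90 for Ndn, 0.73 for Snrpn, 0.39 for Peg3 and 0.41 for Impact. Without region 4 they were -0.47 for Nnat, 0.14 for Snrpn, 0.13 for Peg3 and 0.08 for Impact, and Ndn was at 0.05 without region 2. None of the 12 neuron genes passed the test, with a median change of 0.19, but 3 rose without region 3 (median 0.42). Of 11 tested striatal genes 8 fell (median -0.62), and 9 fell without region 3. All 3 GABA neuron genes fell (median -1.05), and 2 fell without region 3. Of 11 tested microglia and macrophage genes 2 fell with and without that region. Among all 9981 tested targets 135 rose and 99 fell, and 233 rose and 129 fell without region 3. Striatal genes such as Gng7 passed the filter through WT females. The part of these markers in the difference of Gnas was not tested.

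**Figure D2:**
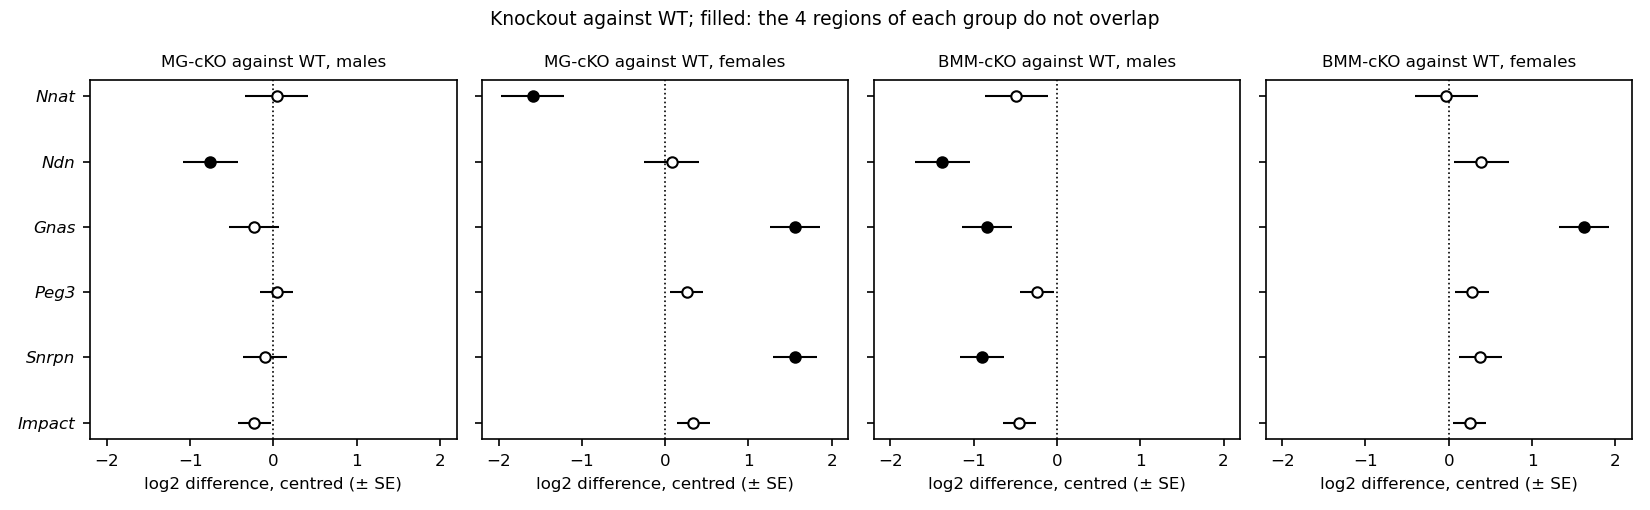
Log2 difference of each knockout from the WT group of its sex for the 6 genes that passed the filter (points, with bars of 1 SE). Points are filled where the 4 regions of each group, as multiples of the negative probe, do not overlap. Gnas lies below WT in BMM-cKO males (-0.84, but 0.66 on the deposited scale) and above WT in BMM-cKO females (1.62).

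The 4 BMM-cKO female regions separate the genes further. Region 3, rich in Ttr and Enpp2, also had Ppp1r1b at 9.24 and Camk2a at 7.8 times the negative probe, whereas Snap25, at 1.31, was lower there than in the other 3 regions. In that region Nnat was at 1.06, Ndn at 0.91 and Snrpn at 0.85 times, while Peg3 was at 3.14 and Gnas at 13.8. Of other imprinted genes, Igf2, a growth factor gene active in choroid plexus, was at 4.8 in region 3 and Cdkn1c, a cell cycle inhibitor gene, at 3.23, and each was at most 1.37 in the rest of the group. Nap1l5, at 1.28, was at its lowest of all 24 regions there. Regions 2 and 4, where Nnat was high, had Hap1 at 4.79 and 3.42 and Baiap3 at 2.22 and 1.72, against at most 0.994 in regions 1 and 3. Hap1 and Baiap3 are the targets most like Nnat over these same regions, so this is no separate support. Regions 2 and 4 differed from each other in Gad1 (3.49 and 0.968), Gad2 (3.15 and 1.01) and Slc32a1 (2.72 and 0.898).

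**Figure D3:**
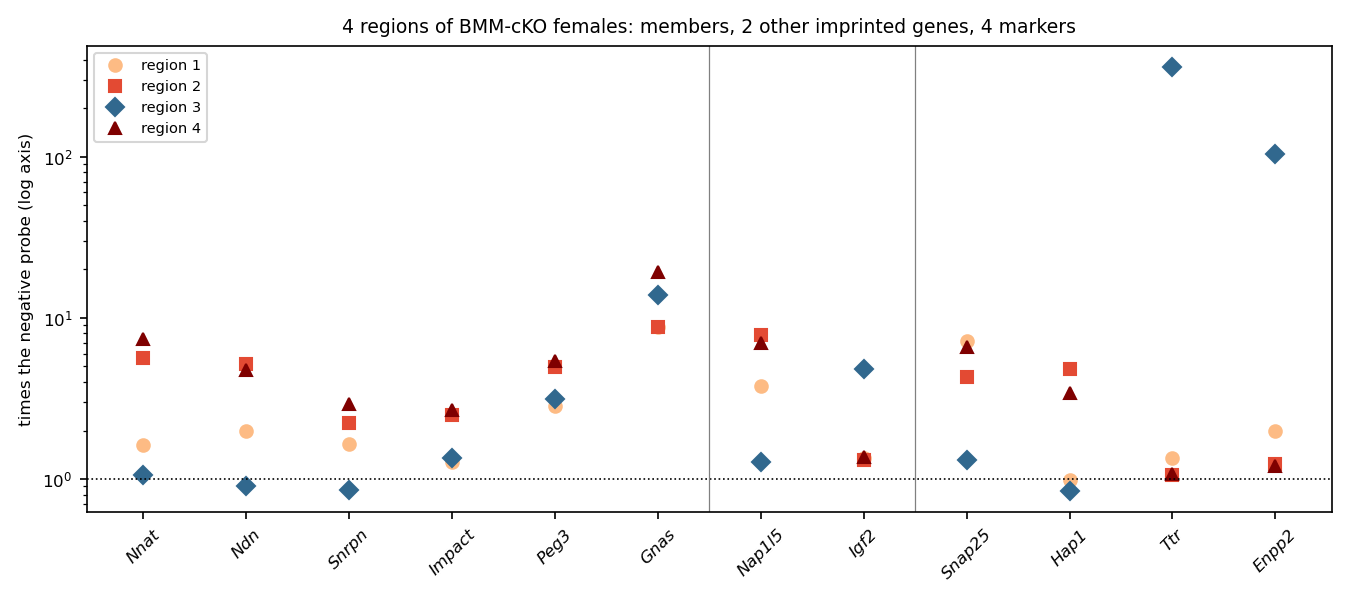
Level of 6 of the imprinted genes, of Nap1l5 and Igf2 and of 4 marker genes in the 4 regions of BMM-cKO females (log axis, multiples of the negative probe). Region 3 has Ttr at 361 and Igf2 at 4.8 with Nnat, Ndn and Snrpn at background. Regions 2 and 4 have Nnat high together with Hap1, which is among the targets most like Nnat over the same regions.

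Nearest targets over all 24 regions were found for each of the 6 genes. The values below are Pearson correlations of centred log2 values. Regions of a sex share a scan, and values near background are noisy, so they are descriptions only. The targets most like Nnat were Baiap3 (r = 0.90), which acts in dense-core vesicle release, Hap1 (0.88), the gene of huntingtin-associated protein, and Sparc (0.85), a matrix protein gene. Within groups, that is on deviations from the group means, Hap1 correlated with Nnat at 0.93 and Baiap3 at 0.81. Snrpn was most like Stmn3, Syp and Rab3a (0.98 each), genes of neurite microtubules and synaptic vesicles.

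Ndn was most like Gprasp2 and Gprasp1 (0.92 each), which encode sorting proteins of G protein-coupled receptors, and Tmem130 (0.89). Peg3 was most like Impact (0.92), followed by Ly6h (0.89) and Gaa (0.88). Impact was most like Gprasp2 (0.93), Peg3 (0.92) and Nap1l5 (0.90), the last 2 of them imprinted genes. Gnas was most like Tuba1b (0.93), an alpha tubulin gene, and Saraf and Morf4l1 (0.87 each). No target named as most like Nnat, Ndn, Gnas or Snrpn is in the lists of imprinted genes, which hold 39 of the 9981 tested targets.

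Against the mean of the 12 neuron genes, Snrpn had r = 0.97 and Nnat -0.38. Without BMM-cKO female region 3 these were 0.96 and -0.57. Within groups both were positive, at 0.94 for Snrpn and 0.61 for Nnat. Against the mean of the 9 tested hypothalamic genes, Nnat had 0.78 and Snrpn -0.23 (0.77 and -0.34 without region 3), and within groups 0.63 and 0.46. That list holds Hap1 and Baiap3, the targets named above as most like Nnat. Without them, a choice made after seeing the data, the other 7 genes gave 0.59 for Nnat and -0.30 for Snrpn over all regions, and 0.08 and 0.02 within groups. Nnat and Snrpn correlated at -0.22 over all regions (-0.37 without region 3), and at 0.76 within groups. All 15 pairs of the 6 genes had a positive correlation within groups, from 0.34 for Nnat and Gnas to 0.95 for Peg3 and Impact. The share of such pairs over all tested targets was not computed, so this count does not set the 6 genes apart. The within-group values were also not computed without region 3, and BMM-cKO females had the largest SD of Nnat (3.06) and Ndn (2.07).

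**Figure D4:**
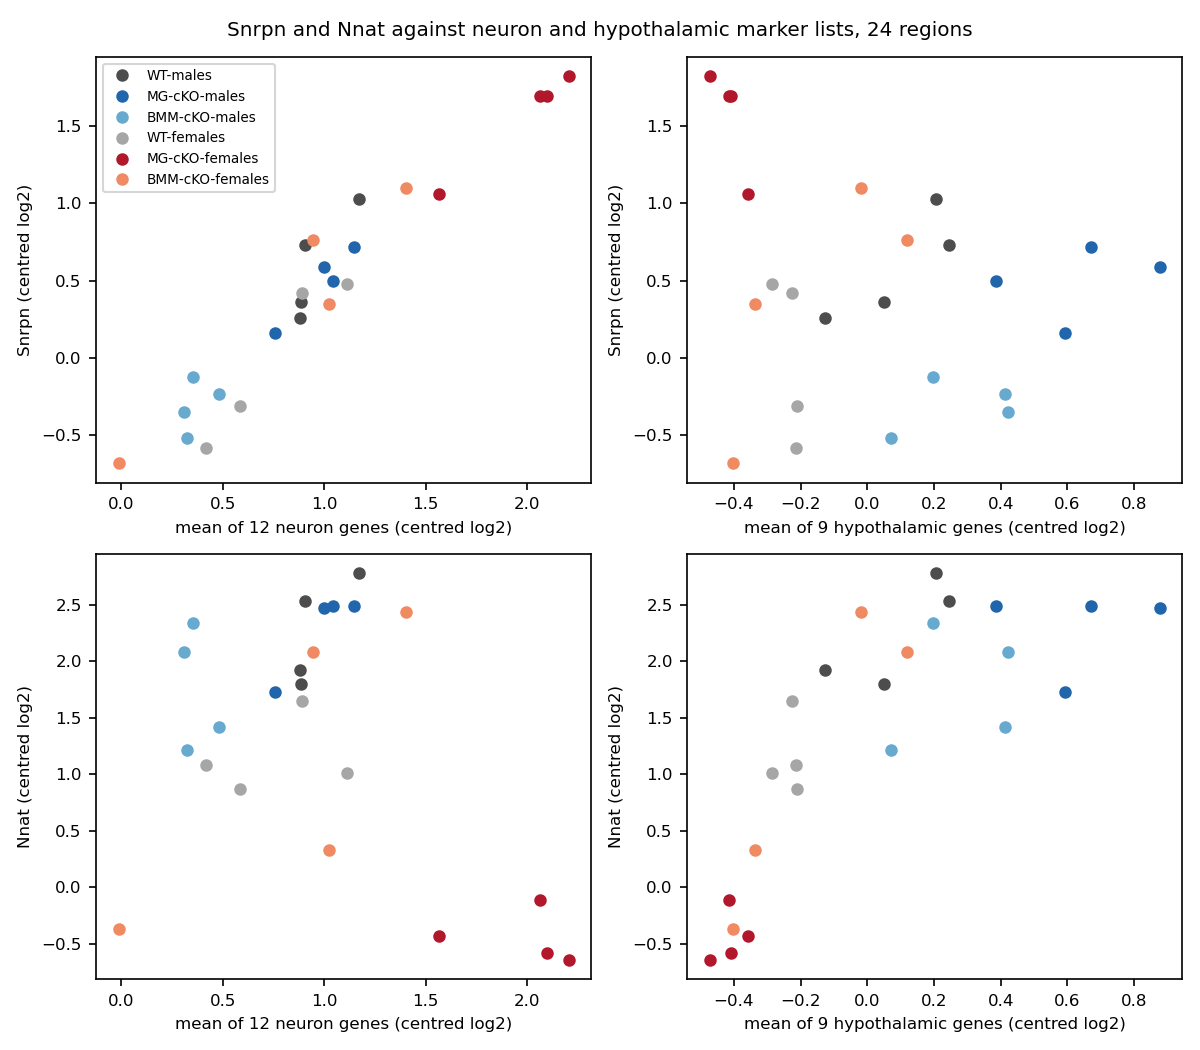
Centred log2 level of Snrpn (top) and Nnat (bottom) in 24 regions against the mean of 12 neuron genes (left) and of 9 hypothalamic genes (right), coloured by group. The correlation is 0.97 for Snrpn with the neuron genes and 0.78 for Nnat with the hypothalamic genes (0.59 without Hap1 and Baiap3), with the MG-cKO female regions at opposite ends of the Snrpn and Nnat axes.

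Genes that neighbour Nnat, Ndn, Snrpn, Peg3 and Dlk1 in their imprinted domains were measured as well, and those near Gnas and Impact were not analysed here. Blcap, which overlaps Nnat, had a mean of 1.15 times the negative probe over all regions. Near Ndn and Snrpn, the means were 1.48 for Magel2, 1.04 for Mkrn3, 1.14 for Ube3a and 1.19 for Atp10a. Usp29, next to Peg3, had 1.6. In the Dlk1 domain, Begain had 1.56, Rtl1 1.31 and Dio3 0.766, beside 1.03 for Dlk1 itself. None of these 9 means was above 2, and 3.14% of all targets had such a mean. Probes of different targets may differ in sensitivity.

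Of 52 other imprinted genes measured from a list of 64, 4 had a mean above 2 times the negative probe, against 3.14% of all targets. Of the 52, 33 passed the filter and were tested. The 4 were Nap1l5 (5.06 ± 2.18), Rasgrf1 (2.72 ± 1.34), Cd81 (2.08 ± 0.402) and Peg10 (2.01 ± 0.329; SD, n = 24 regions each). Nap1l5, of the nucleosome assembly protein family, had a level of 7.12 ± 2.48 (SD, n = 4 regions) in the WT males, and of 3.13 ± 1.9 in their female counterparts. It passed limma's test in none of the 4 comparisons (adjusted p from 0.0748 to 0.861).

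In MG-cKO against WT females 5 of the 33 genes rose and 5 fell, against 29.8% of all tested targets called (17.9% higher and 11.9% lower), and the median change was -0.05 (-0.02 for all tested targets). Rasgrf1, a Ras guanine nucleotide exchange factor gene of neurons, rose by 1.10 ± 0.16 (SE), from 2.26 ± 0.332 to 5.36 ± 1.15 times the negative probe (SD, n = 4 regions each, limma adjusted p = 9.08e-06). Zrsr1, related to splicing factors, rose by 0.48 (adjusted p = 0.000424). Peg10, a gene derived from a retrotransposon, fell by 0.44 (adjusted p = 0.0137), and Rtl1, of similar origin, fell by 0.40 (adjusted p = 0.000445). H13, a signal peptide peptidase gene, rose by 0.39 (limma adjusted p = 0.00242) and Nap1l4 by 0.36 (adjusted p = 0.00313). Rtl1, H13 and Nap1l4 lay near background, with means of 1.22, 1.21 and 1.3 times the negative probe in MG-cKO females. Their means in WT females were 1.48, 0.836 and 0.92.

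In BMM-cKO against WT males 4 of the 33 rose and 7 fell, against 53.6% of all tested targets called (27.8% higher and 25.7% lower), with a median of -0.02 (-0.01 for all). Trappc9, a vesicle tethering gene, rose by 0.63 (adjusted p = 2.27e-06), Rtl1 by 0.47 (adjusted p = 2.36e-05) and Tfpi2 by 0.46 (adjusted p = 0.000319). H13 fell by 0.62 (limma adjusted p = 5.25e-06), Nap1l4 by 0.55 (adjusted p = 1.39e-05) and Mest by 0.46 (adjusted p = 0.00217). Trappc9 had means of 2.07 times the negative probe in BMM-cKO males and 1.37 in WT males. The means of Rtl1, Tfpi2, H13, Nap1l4 and Mest were 1.45, 1.23, 0.831, 0.851 and 1.12 in BMM-cKO males. In WT males they were 1.07, 0.913, 1.3, 1.27 and 1.57, so these genes lay near background in both groups. On the deposited scale the 7 genes that fell all lay above WT, by 0.88 to 1.22, which is less than the shift of 1.49 of the median target there.

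In MG-cKO against WT males 0 of the 33 genes passed limma's test at adjusted p under 0.05, 3 had an unadjusted p under 0.05, and the median change was -0.01 (0.01 for all), against 0.481% of all tested targets called. In BMM-cKO against WT females H13 alone rose, by 0.55 (adjusted p = 0.00114; 0.54 without region 3), against 2.34% of all tested targets called (1.35% higher), with a median of 0.01. Of the 33 genes, 3 passed without BMM-cKO region 3 and 3 without region 1, and 2 passed without region 2 and without region 4. Calls over all targets depended on single regions here as well. In MG-cKO males the 48 calls went down to 1 without WT male region 3 and up to 319 without MG-cKO male region 1, with all 8 such fits moving the count by over 1.5 times. In BMM-cKO females the 234 calls became 362 without BMM-cKO region 3, and 60, 152 and 68 without WT region 2, 3 and 4.

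**Figure D5:**
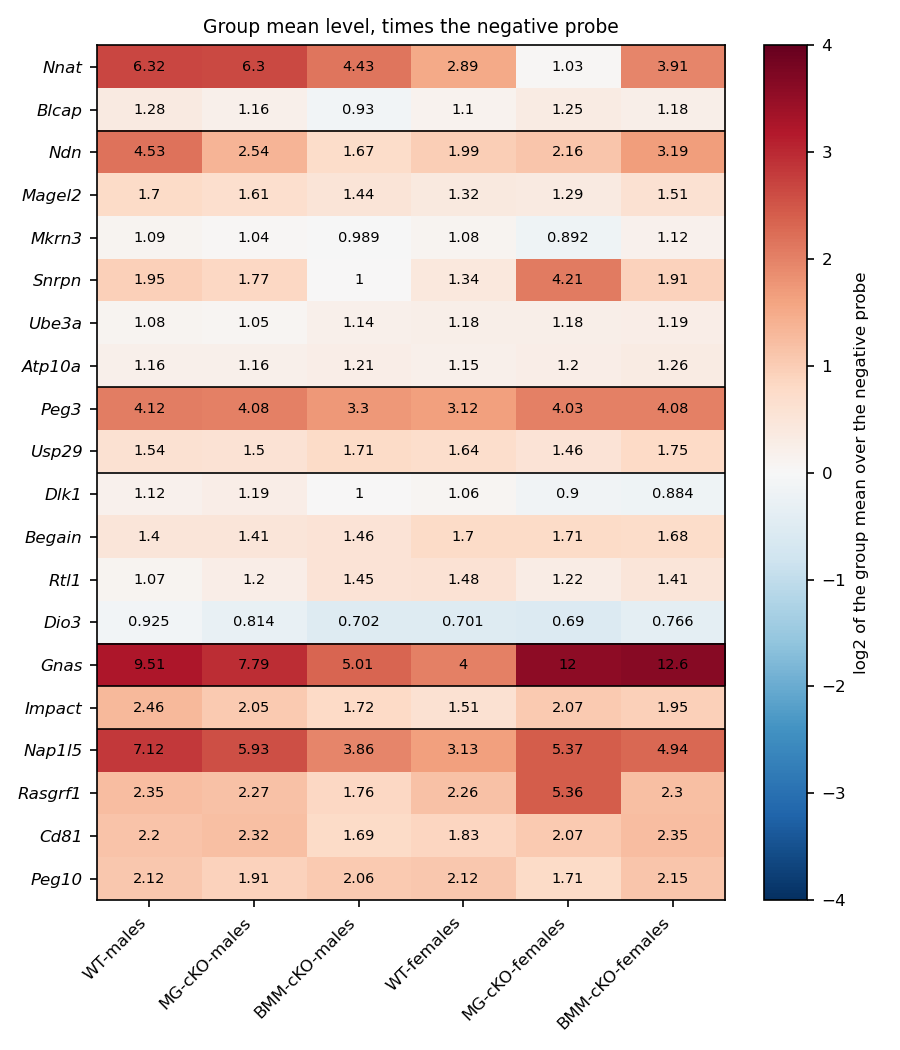
Group mean level, as a multiple of the negative probe, of the 7 genes, of 9 genes in their domains and of the 4 other imprinted genes with a mean above 2 (bottom), with colour for the log2 of the same value and lines between domains. Over all regions, Nnat, Ndn, Peg3, Gnas and Snrpn (2.03) have means above 2, as do 3.14% of all targets. Neighbours such as Blcap (1.15), Magel2 (1.48) and Usp29 (1.6) do not. The 7 genes were chosen with their values known, so this contrast with their neighbours is partly set by the choice. Snrpn exceeds 2 through MG-cKO females (4.21), and its other group means are 1 to 1.95.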

How the data were processed

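Per the labels' protocols, probes were hybridised to frozen sections of perfusion-fixed brains and tags were sequenced on an Illumina instrument. The deposited values are signal per target and region, and the authors scaled them by 1 factor per region within each group, as read from the deposited values. Counting software and genome build are not given in the sources used here. All 24 regions were used. A table with 12 columns that name no single region was left out. No region was a duplicate: in each of the 36 within-group pairs the chi-square per degree of freedom was 1.09 to 11.7, above sampling noise. Replicate numbers follow deposition order.

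Log2(signal + 1) was centred on each region's median over the 9981 of 19962 targets whose scaled mean over all regions exceeded the median target. A gene high in a single group can pass this filter through that group. limma 3.58.1 in R 4.3.3 (trended, 6 group coefficients) gave changes relative to that median, with Benjamini-Hochberg adjusted p under 0.05 as threshold. The procedure was tested on simulated data. The 7 genes, the lists of imprinted genes and the markers were chosen with earlier results of these data known. The genes named are the 7, their domain neighbours, up to 6 other imprinted genes per comparison by size of change, those above 2 times the negative probe, and the 3 targets most like each of the 7. Igf2, Cdkn1c, Hap1 and Baiap3 in single regions, and Pmch and Hcrt, were named after their values were seen. Tags may not be independent molecules, so counting errors cover counting only. Alternatives were the deposited scale, quantile normalization, division by the negative probe, no filter, a pseudocount of 10, fits of 2 groups only and leaving out each region.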

Additional observations from a re-analysis of the deposited data

Results flagged for a closer look

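In 42 sets of 4 regions (7 genes in 6 groups), 5 held a region far from the other 3 by Dixon's ratio, where chance gives about 1 in 20. Sets that share regions are not independent, so the 1 in 20 is only a rough guide. Nnat was at 3.9 times the negative probe in MG-cKO male region 1, against 7.02 to 7.15 in the rest of that group. Peg3 was at 2.93 in the same region, against 4.33 to 4.58. In that region 0.902% of all targets were above 2 times the negative probe, against 2.71% to 3.09% in the rest. Ndn, Gnas, Snrpn and Impact were also at their lowest of the group there. Nnat was at 1.29 in MG-cKO female region 1, against 0.902 to 0.967 in the rest. Peg3 was at 3.38 in MG-cKO female region 2, against 4.2 to 4.32. There 4.25% of all targets were above 2 times the negative probe, against 7.64% to 7.99% in the rest. Ndn, Gnas, Snrpn and Impact were again at their lowest of the group. Dlk1 was at 1.21 in WT female region 4, against 1 to 1.03.

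In 3 imprinted genes all BMM-cKO regions lay below WT in males and above WT in females, and the difference between the sexes was not tested. These are 3 of 39 imprinted genes examined (7.69%), and 3.22% of all 9981 tested targets showed this pattern (3.66% with either direction). The 39 include 6 of the 7 genes, chosen with their values known, and Gnas is one of them. The 2 shares therefore cannot be set against each other. Among the 33 other imprinted genes, Nap1l4 and H13 showed the pattern, both near background. In MG-cKO 0 of the 39 lay on opposite sides of WT in the sexes, against 0.932% of all. Gnas had a BMM-cKO mean of 5.01 times the negative probe in males, with 4.09 to 5.75 against 6.63 to 13.8 in WT, and 8.73 to 19.2 against 2.53 to 6.48 in females. Nap1l4 had a BMM-cKO mean of 0.851 in males, with 0.787 to 0.933 against 1.19 to 1.44, and 1.08 to 1.33 against 0.798 to 1.02 in females. H13 had a BMM-cKO mean of 0.831 in males, with 0.744 to 0.95 against 1.19 to 1.5, and 1.13 to 1.43 against 0.789 to 0.868 in females. Sex and scan cannot be told apart in these 3 genes.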

How the results depend on the processing

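The deposited scale, set by the authors within each group, moved the median tested target by 0.32 and 0.30 (log2) in MG-cKO males and females and by 1.49 and 0.64 in BMM-cKO males and females. In that order, calls over all targets became 8039, 7084, 9966 and 9917, of which 8039, 7066, 9966 and 9910 were higher, and those among the 33 other imprinted genes 23, 20, 32 and 33. Changes that turned sign there were Usp29 (0.03) and Ddc (0.08) in MG-cKO females, and Ndn (0.12), Gnas (0.66), Snrpn (0.60), Blcap (1.06), Mest (1.04), Kcnk9 (1.17), Igf2r (1.22), Cd81 (1.14), Nap1l4 (0.95) and H13 (0.88) in BMM-cKO males. All of them lay below the median shift. For the following the cause was not tested. Quantile normalization gave 133 calls in MG-cKO males, 97 of them higher (44 of 48 with centring), and 2 other imprinted genes in BMM-cKO females. Division by the negative probe gave 2 calls in MG-cKO males and 2 other imprinted genes in BMM-cKO females, and it made 2811 of 2932 calls in MG-cKO females higher (1787 of 2977 with centring) and 259 of 286 in BMM-cKO females (135 of 234 with centring). Without a filter, BMM-cKO males had 8871 calls and 18 other imprinted genes, and BMM-cKO females 150 calls. Fits of 2 groups gave 8 calls in MG-cKO males, 11 in BMM-cKO females and 20 other imprinted genes in BMM-cKO males. A pseudocount of 10 kept each of these counts within 1.5 times.

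Leaving out each region gave 1 to 319 calls in MG-cKO males, 2256 to 3479 in MG-cKO females, 4787 to 5161 in BMM-cKO males and 60 to 362 in BMM-cKO females, and 0 to 1, 8 to 11, 10 to 13 and 1 to 3 other imprinted genes. The correlations without BMM-cKO female region 3, those without Hap1 and Baiap3, and the marker counts without region 3 were added after seeing the data. No paired analysis was possible because the labels give regions no shared replicate number. The planned count tests were not run, since the values are scaled signal. Most targets lie near the negative probe, so any change in the transcript of a low target would be understated. Whether differences called near that level come from the transcript at all was not tested.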
